A study of Arabidopsis thaliana with 8 samples.

Results

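The aldehyde dehydrogenase (ALDH) genes other than REF1 were described in inflorescence stems of Arabidopsis thaliana. Members were chosen by symbol, as all genes whose annotated symbol begins with ALDH and a number, on probe sets with 1 gene only. The 1 measured value in the rule was brightness: the probe set of each gene was selected on its mean log2 intensity over the 8 arrays. The family itself was chosen with earlier results of these data known, so the calls of members below are not independent of that choice. REF1 (AT3G24503, symbol ALDH2C4) was left out by this rule. The rule found 7 members among 13356 genes represented on the arrays: ALDH6B2, ALDH11A3, ALDH10A8, ALDH10A9, ALDH7B4, ALDH3F1 and ALDH22A1. Each had 1 probe set, so brightness made no choice between probe sets. The gene table used for names holds 13 such genes, and the other 6 (ALDH2B4, ALDH2B7, ALDH3H1, ALDH3I1, ALDH5F1 and ALDH12A1) were not analysed here.

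The arrays were 3 of F5H-OE stems, 2 of fah-1 stems and 3 of wild-type (WT) stems. F5H-OE overexpresses F5H (ferulate/coniferaldehyde 5-hydroxylase), which steers monolignol synthesis towards syringyl lignin, and fah-1 is labelled as having lost F5H function. All 3 groups share the ecotype Columbia-0 and an age of 1.5 months, and each sample pooled stems of 5 plants. For F5H-OE, neither the promoter nor the parental background nor the number of independent lines is stated in the labels. The series' design gives 3 replicates, of which fah-1 has 2 here. Values are RMA intensities on a linear scale. A gene was called changed at an adjusted p under 0.05 (limma, Benjamini-Hochberg over all 22746 probe sets), and every fold change and difference below is on the log2 scale unless called a fold.

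ALDH enzymes oxidise aldehydes to carboxylic acids with NAD+ or NADP+ as acceptor. Aldehydes arise as intermediates of amino acid, polyamine, sugar and phenylpropanoid metabolism and from the peroxidation of membrane lipids, and they react readily with proteins. In plants the family is best known for amino acid breakdown, osmolyte synthesis and the detoxification of aldehydes under drought and salt. In the lignin pathway REF1 oxidises coniferaldehyde and sinapaldehyde, and F5H also takes coniferaldehyde as a substrate.

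Median intensities of the 8 arrays lay between 112 and 118. F5H-OE replicate 1 was the least like its group, with log2 values correlated at a mean r of 0.987 with the other F5H-OE arrays, while those correlated at 0.997 with each other. The GAPDH control, which reads RNA integrity, was 1.47 (log2) brighter at its 3′ than at its 5′ end on that array and at most 0.853 brighter on each of the other 7. F5H was not named by a probe set, so the genotype labels were not checked on the targeted transcript. All members were well above background on every array: their lowest log2 intensity was 7.99, against at most 3.93 for the 3 TrpnX control probe sets.

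ALDH6B2 was the 1 member of 7 that changed, and it was lower in F5H-OE stems than in both other groups. In F5H-OE against WT 0 members were higher and 1 was lower, while 2.65% of all probe sets tested were called, 1.36% lower and 1.29% higher. In F5H-OE against fah-1 the counts were again 0 higher and 1 lower, with 1.97% of all probe sets called, 0.835% lower and 1.14% higher. In fah-1 against WT 0 members passed by limma, and 0.00879% of all probe sets were called in either direction. There 0 members had an unadjusted p under 0.05, against 5.02% of all probe sets. The 2 comparisons with F5H-OE share the F5H-OE arrays, and the 2 with WT share the WT arrays.

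**Figure D1:**
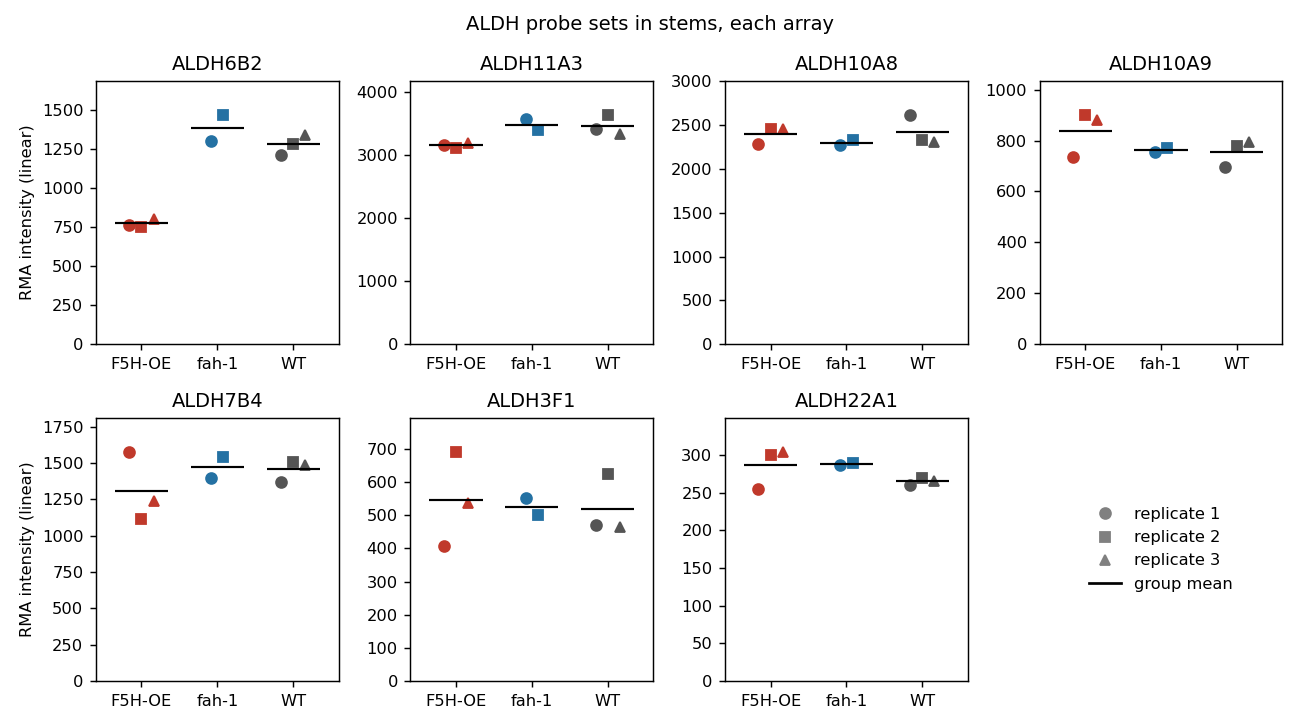
RMA intensity (linear scale, each axis from 0) of the 7 ALDH probe sets on every array, grouped as F5H-OE, fah-1 and WT; symbols mark the replicate number and black lines the group means. The 3 F5H-OE points of ALDH6B2 lie between 751 and 804, below all fah-1 and WT points, while the groups of the other members lie close together.

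ALDH6B2 (AT2G14170, chromosome 2) encodes the mitochondrial methylmalonate-semialdehyde dehydrogenase, which forms an acyl-CoA product late in valine breakdown. Its intensity was 764, 751 and 804 in F5H-OE replicates 1, 2 and 3. It was 1302 and 1464 in fah-1 replicates 1 and 2, and 1212, 1283 and 1341 in WT replicates 1, 2 and 3. The highest F5H-OE array was thus below the lowest array of either other group, while the fah-1 and WT arrays overlapped.

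The mean of ALDH6B2 was 773 ± 27.4 (SD, n = 3) in F5H-OE, against 1279 ± 64.7 (SD, n = 3) in WT. The log2 fold change was -0.73 ± 0.079 (SE, adjusted p = 0.0031), or 1.65-fold lower in F5H-OE, with a 95% interval from -0.91 to -0.54. Against fah-1, at 1383 ± 115 (SD, n = 2), the difference was -0.84 ± 0.089 (SE, adjusted p = 0.0037), or 1.79-fold lower in F5H-OE. In fah-1 against WT it was 0.11 (adjusted p = 0.973), with a 95% interval from -0.09 to 0.32. In F5H-OE against WT 636 probe sets had a larger absolute log2 fold change, and ALDH6B2 was the 358th from the bottom. In these pooled stems fewer cells that express a gene and less RNA per cell cannot be told apart.

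The value of ALDH6B2 in F5H-OE replicate 1 differed by only -0.02 (log2) from the mean of F5H-OE replicates 2 and 3. Leaving that array out gave -0.72 in F5H-OE against WT (adjusted p = 0.0038). Over all 17 alternative settings the value in F5H-OE against WT stayed between -0.76 and -0.69 and past the threshold (adjusted p 0.0012 to 0.019). In F5H-OE against fah-1 the call ended without fah-1 replicate 2, where ALDH6B2 was at -0.75 (adjusted p = 0.065). There the lone fah-1 array is assumed to vary like the other groups.

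**Figure D2:**
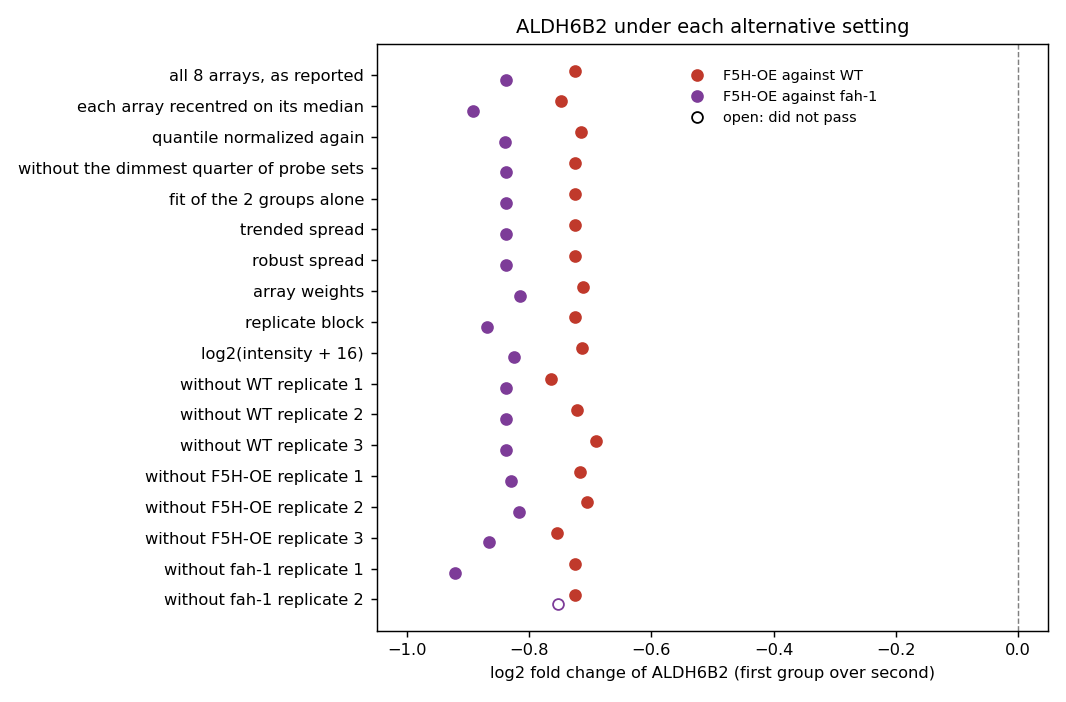
Log2 fold change of ALDH6B2 (horizontal axis) in F5H-OE against WT (red) and F5H-OE against fah-1 (purple) as reported and under each of 17 alternative settings (rows); filled points passed an adjusted p of 0.05 and the open point did not. The red points stay between -0.76 and -0.69, and the purple point without fah-1 replicate 2 is the only open one.

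REF1, the family member left out, was also lower in F5H-OE stems than in WT, at -0.55 (log2 fold change, adjusted p = 0.032). That call ended in a fit of the 2 groups alone and without any 1 array other than F5H-OE replicate 1 (adjusted p 0.018 to 0.108 over the alternatives). Its value was -0.31 in fah-1 against WT (unadjusted p = 0.026, adjusted p = 0.951) and -0.24 in F5H-OE against fah-1 (adjusted p = 0.360). The F5H-OE arrays and the fah-1 arrays of REF1 were all below its WT arrays, as for 11.7% and 14.9% of all probe sets.

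ALDH11A3 (AT2G24270, chromosome 2) encodes the non-phosphorylating glyceraldehyde-3-phosphate dehydrogenase, which makes NADPH in the cytosol beside glycolysis. Its intensity was 3162, 3121 and 3197 in F5H-OE replicates 1 to 3, 3575 and 3404 in fah-1 and 3426, 3636 and 3347 in WT. All 3 F5H-OE arrays were below every other array, by a small margin. The log2 fold change was -0.13 ± 0.069 (SE, adjusted p = 0.365) in F5H-OE against WT and -0.14 ± 0.077 (SE, adjusted p = 0.415) against fah-1, so neither passed. The 95% interval against WT, from -0.29 to 0.02, allows at most a 1.22-fold lower level in F5H-OE. With ALDH6B2 it made 2 of 7 members whose F5H-OE and WT arrays did not overlap, both lower. Over all probe sets tested 21.0% did not overlap, 9.34% higher and 11.7% lower in F5H-OE. In F5H-OE against fah-1 the same 2 members did not overlap, both lower, against 36.8% of all probe sets, 18.0% higher and 18.9% lower.

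ALDH10A8 and ALDH10A9 encode the pair of aminoaldehyde dehydrogenases, which oxidise aminoaldehydes from polyamine breakdown and betaine aldehyde. ALDH10A8 (AT1G74920, chromosome 1) had 2282, 2461 and 2455 in F5H-OE, 2271 and 2332 in fah-1 and 2612, 2329 and 2313 in WT. Its 3 groups overlapped, and the log2 fold change was -0.01 in F5H-OE against WT (adjusted p = 0.965) and -0.07 in fah-1 against WT (adjusted p = 0.973). The 95% interval in F5H-OE against WT ran from -0.19 to 0.17.

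ALDH10A9 (AT3G48170, chromosome 3) had 737, 899 and 882 in F5H-OE, 756 and 770 in fah-1 and 697, 778 and 796 in WT. F5H-OE replicates 2 and 3 were the highest arrays of the 8, while F5H-OE replicate 1 lay within the WT range. The log2 fold change was 0.15 ± 0.098 in F5H-OE against WT (SE, adjusted p = 0.489) and 0.01 in fah-1 against WT (adjusted p = 0.999). Without F5H-OE replicate 1 the value against WT was 0.24 and did not pass either (adjusted p = 0.15).

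ALDH7B4 (AT1G54100, chromosome 1) is the stress-induced antiquitin-like enzyme, known for its rise under drought, salt and abscisic acid and for limiting damage from lipid peroxidation. It had 1576, 1114 and 1238 in F5H-OE, 1400 and 1545 in fah-1 and 1371, 1510 and 1488 in WT. The highest and the lowest of the 8 arrays were both F5H-OE arrays, replicates 1 and 2. The log2 fold change in F5H-OE against WT was -0.17 ± 0.13 (SE, adjusted p = 0.542), and in fah-1 against WT it was 0.02 (adjusted p = 1.00). Without F5H-OE replicate 1 the value in F5H-OE against WT was -0.31 (adjusted p = 0.089), while leaving out F5H-OE replicate 2 gave -0.06 (adjusted p = 0.869).

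ALDH3F1 (AT4G36250, chromosome 4) belongs to family 3 of the ALDHs, whose stress-responsive relatives ALDH3H1 and ALDH3I1 act on aliphatic aldehydes. In gene order it stands close to F5H itself (AT4G36220, symbol FAH1), with 2 protein-coding genes and 1 tRNA gene between them. Its intensity was 407, 691 and 538 in F5H-OE, 551 and 500 in fah-1 and 469, 625 and 466 in WT. It varied most within groups of the 7 members, with a pooled SD of 0.289 (log2), against 0.046 for ALDH11A3. All 3 groups overlapped.

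The log2 fold change of ALDH3F1 was 0.05 in F5H-OE against WT (adjusted p = 0.922) and 0.03 in fah-1 against WT (adjusted p = 0.999), and its sign in both turned with single arrays left out. The 95% interval in F5H-OE against WT, from -0.40 to 0.49, does not exclude a change of up to 1.41-fold upwards.

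ALDH22A1 (AT3G66658, chromosome 3) belongs to an ALDH family found in plants. It had 255, 300 and 304 in F5H-OE, 287 and 290 in fah-1 and 260, 270 and 265 in WT. Both fah-1 arrays were above all WT arrays, while F5H-OE replicate 1 was below them. The log2 fold change was 0.12 ± 0.096 in fah-1 against WT (SE, adjusted p = 0.973) and 0.11 ± 0.086 in F5H-OE against WT (SE, adjusted p = 0.565). It was the 1 member of 7 whose fah-1 and WT arrays did not overlap, against 23.4% of all probe sets, 8.58% higher and 14.9% lower in fah-1. Without F5H-OE replicate 1 the log2 fold change in F5H-OE against WT was 0.19 (adjusted p = 0.173).

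Over the 7 members, the log2 fold changes in F5H-OE against WT ran from -0.73 to 0.15, with a median of -0.01, against -0.02 over all probe sets tested. In fah-1 against WT they ran from -0.07 to 0.12, with a median of 0.02 against -0.02 over all probe sets. In F5H-OE against fah-1 they ran from -0.84 to 0.13, with a median of -0.01 and the same median of -0.01 over all probe sets. Group means were in the order fah-1, WT, F5H-OE from high to low for ALDH6B2, ALDH11A3 and ALDH7B4, and F5H-OE, fah-1, WT for ALDH10A9 and ALDH3F1. Only the step between F5H-OE and each of the other groups for ALDH6B2 passed the test, and no other difference between group means of a member did. F5H-OE replicate 1 differed from the mean of F5H-OE replicates 2 and 3 by 0.42 (log2) in ALDH7B4, by -0.58 in ALDH3F1, by -0.27 in ALDH10A9 and by -0.25 in ALDH22A1, while in ALDH11A3 the difference was 0.0013.

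**Figure D3:**
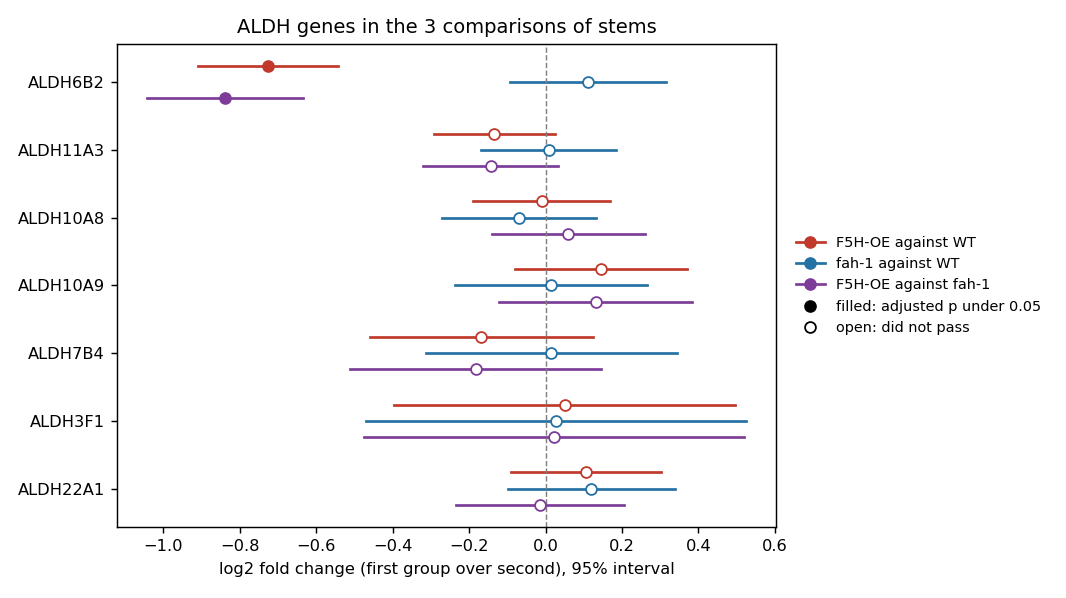
Log2 fold change (horizontal axis) with its 95% interval for each ALDH gene (rows) in F5H-OE against WT (red), fah-1 against WT (blue) and F5H-OE against fah-1 (purple); filled points passed an adjusted p of 0.05. The 2 filled points are those of ALDH6B2, at -0.73 and -0.84, and the intervals of the other members include 0.

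For the 3 members with the smallest p over the 3 groups, the named genes with the most similar pattern were found by Pearson correlation of log2 values over the 8 arrays, as a description. ALDH6B2 was most like AT5G59770 (r = 0.996), AT5G65850 (r = 0.990) and AT5G39030 (r = 0.985), and 191 named genes had an r over 0.9 with it. The points of each correlation are the same 8 arrays, and for ALDH6B2 they fall into the 3 F5H-OE arrays and the other 5. AT5G39030 had 24.7, 18.5 and 22.8 in F5H-OE, 108 and 112 in fah-1 and 100, 97.7 and 107 in WT. Its log2 fold change in F5H-OE against WT was -2.22 (adjusted p = 3.9e-05), against -0.93 for AT5G59770 (adjusted p = 0.0018) and -1.36 for AT5G65850 (adjusted p = 0.0010). The 3 genes were chosen for their likeness to ALDH6B2 on these same arrays, so these p-values are not a separate test. The lowest log2 intensities of AT5G65850 and AT5G39030, 4.17 and 4.21, were close to the TrpnX level of up to 3.93. All 3 genes lie on chromosome 5, while ALDH6B2 lies on chromosome 2.

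ALDH11A3 was most like AT5G60335 (r = 0.960), AT2G05810 (r = 0.959) and AT1G50050 (r = 0.957), with 35 named genes over 0.9. ALDH10A9 was most like AT3G07640 (r = 0.991), AT1G74840 (r = 0.990) and OCT1, an organic cation transporter gene (r = 0.969), with 71 over 0.9. None of these 6 genes passed in F5H-OE against WT (adjusted p 0.052 to 0.477).

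**Figure D4:**
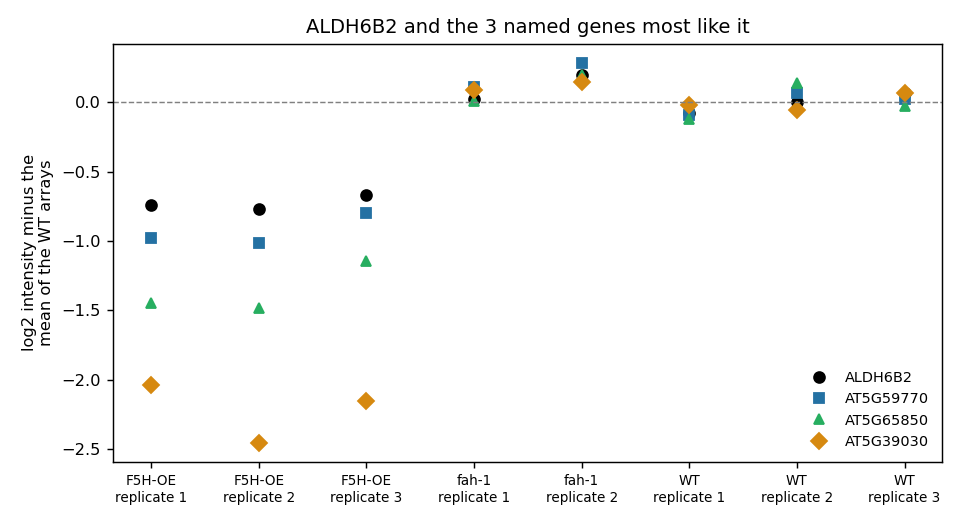
Log2 intensity of ALDH6B2 and the 3 named genes with the most similar pattern, minus the mean of the WT arrays (vertical axis), on each of the 8 arrays (horizontal axis). All 4 genes are lower on the 3 F5H-OE arrays, from -0.73 for the ALDH6B2 mean to -2.22 for AT5G39030, while their fah-1 means lie between 0.11 and 0.20.

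The neighbours of each member in gene order were counted, 25 named genes on each side. Of the 50 around ALDH6B2, 4 changed in F5H-OE against WT, 1 higher and 3 lower, or 8%, against 2.39% of 13217 named genes with a place on chromosomes 1 to 5. Around ALDH11A3 and ALDH7B4 it was 1 each (2%), and around ALDH10A8, ALDH10A9, ALDH22A1 and ALDH3F1 it was 0. The 4 around ALDH6B2, named after their values were seen, were AT2G14255 at -0.80, AT2G14080 at -0.81, AT2G13970 at -1.46 and AT2G13890 at 1.03 (log2 fold changes). AT2G13890 had a lowest log2 intensity of 3.99, near the TrpnX level of up to 3.93, and was at 0.61 on log2(intensity + 16). Most of the 50 neighbours of ALDH6B2 also had a lowest log2 intensity near that level, which the share of 8% does not take into account. The call of AT2G14080 ended without WT replicate 2 or 3 and without F5H-OE replicate 2 or 3 (adjusted p up to 0.078).

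Other genes of aldehyde-linked metabolism and of the dehydration response were taken from 9 lists of 90 genes, of which 17 were measured under a name. The lists were not limited to pathways of the measured members. The hydroxycinnamaldehyde list goes with REF1, which was left out, and the dehydration and abscisic acid list is a stress response. In F5H-OE against WT 0 of the 17 were higher and 1 was lower, with a median log2 fold change of 0.02. Of all probe sets tested 1.29% were called higher and 1.36% lower there. In fah-1 against WT 0 of the 17 passed by limma, and the median was -0.02. There 1 of the 17 had an unadjusted p under 0.05, against 5.02% of all probe sets.

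Of branched-chain amino acid breakdown, the pathway of ALDH6B2, 3 of 12 genes in the list were measured. IVD, the isovaleryl-CoA dehydrogenase of leucine and valine breakdown, had 849, 815 and 819 in F5H-OE, 825 and 857 in fah-1 and 601, 698 and 940 in WT. The WT arrays spread around those of both lines, and the log2 fold change of IVD was 0.17 in F5H-OE against WT (adjusted p = 0.585). Without single arrays IVD ranged from 0.03 to 0.35, the ends being without WT replicate 1 and without WT replicate 3. MCCA and MCCB, the subunits of methylcrotonoyl-CoA carboxylase in leucine breakdown, were at -0.23 (adjusted p = 0.608) and 0.22 (adjusted p = 0.655) in F5H-OE against WT, and their signs turned without WT replicate 3 and without WT replicate 1. None of the 3 passed in any comparison, with a median of 0.17 in F5H-OE against WT. No gene specific to valine breakdown, where ALDH6B2 acts, was among them.

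The gene that changed was PDC2 (AT5G54960, chromosome 5), a pyruvate decarboxylase, the enzyme that makes acetaldehyde in fermentation. PDC2 had 1634, 1369 and 1169 in F5H-OE, 2133 and 2593 in fah-1 and 2443, 3168 and 2335 in WT. Every F5H-OE array was below every array of the other groups. Of all probe sets, 11.7% were lower without overlap against WT and 18.9% against fah-1. Its log2 fold change in F5H-OE against WT was -0.93 ± 0.16 (SE, adjusted p = 0.024). Against fah-1 it was -0.77 (adjusted p = 0.080), and it passed there with array weights (-0.90, adjusted p = 0.0063) and without F5H-OE replicate 1 (-0.89, adjusted p = 0.019). PDC2 was at -0.16 in fah-1 against WT (adjusted p = 0.973). The call in F5H-OE against WT ended without WT replicate 1, 2 or 3 and without F5H-OE replicate 2 or 3 (adjusted p 0.0030 to 0.092 over the alternatives). Of the 50 named neighbours of PDC2 in gene order 4 changed in F5H-OE against WT, 2 higher and 2 lower, or 8%. The share over 13217 named genes was 2.39%. PDC2 is not a member, and its neighbours were counted after its change was seen. Among those that changed, AT5G54720 had a lowest log2 intensity of 3.64, below the TrpnX level of up to 3.93. SGP1 was close to the threshold (adjusted p = 0.048 by limma).

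ACS, the acetyl-CoA synthetase that uses the acetate made from acetaldehyde by ALDH enzymes, had 393, 322 and 287 in F5H-OE, 332 and 359 in fah-1 and 372, 369 and 406 in WT. Its log2 fold change was -0.21 in F5H-OE against WT (adjusted p = 0.416) and -0.15 in fah-1 against WT. Of the aldehyde reductases and glyoxalases, 4 of 7 were measured and none passed in F5H-OE against WT: AOR, an alkenal and alkenone reductase of the chloroplast, was at 0.15 (adjusted p = 0.526), AER, an alkenal reductase, at 0.21, and GLY2, a glyoxalase II gene, at -0.05. In fah-1 against WT AOR was at 0.38 (unadjusted p = 0.014, adjusted p = 0.935), with both fah-1 arrays (587 and 656) above the WT range of 412 to 528. Of all probe sets 8.58% were higher without overlap there.

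The lists of proline metabolism, polyamine metabolism and glyceraldehyde phosphate dehydrogenases had 1 measured gene each in F5H-OE against WT. DELTA-OAT, the ornithine aminotransferase, was at 0.08 (adjusted p = 0.621), SAMDC, the S-adenosylmethionine decarboxylase, at 0.06 (adjusted p = 0.741) and GAPC2, a cytosolic glyceraldehyde-3-phosphate dehydrogenase, at 0.01 (adjusted p = 0.943). No gene of the GABA shunt was measured under a name. CCR2, a cinnamoyl-CoA reductase and the 1 measured gene of 13 in the hydroxycinnamaldehyde list, had 410, 48.9 and 58.9 in F5H-OE replicates 1 to 3, 43.6 and 43.0 in fah-1 and 42.3 to 45.5 in WT. In F5H-OE against WT it did not pass at 1.28 (log2 fold change, adjusted p = 0.384), and it was at 0.31 without F5H-OE replicate 1 (adjusted p = 0.107).

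ALDH7B4 is known to respond to dehydration, and 4 of 16 genes of the dehydration and abscisic acid list were measured. None passed in F5H-OE against WT, where their log2 fold changes ran from -0.48 for LTI30, a dehydrin, to 0.18 for COR15B, a cold-regulated chloroplast protein. LTI30 had 8131, 3642 and 4733 in F5H-OE, 5632 and 6807 in fah-1 and 10281, 4982 and 7450 in WT. Among the F5H-OE arrays LTI30 was highest in replicate 1 and lowest in replicate 2, as was ALDH7B4. COR47, with 9944, 7084 and 7654 in F5H-OE replicates 1 to 3, had the same order (named after its values were seen). COR15A, with 203, 506 and 277, and COR15B, with 1498, 2269 and 1588, had the opposite one, lowest in replicate 1 and highest in replicate 2. Among the WT arrays LTI30 and COR47 were again highest in replicate 1 and lowest in replicate 2. ALDH7B4, with 1371, 1510 and 1488 in WT, was there lowest in replicate 1 and highest in replicate 2, as were COR15A and COR15B.

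**Figure D5:**
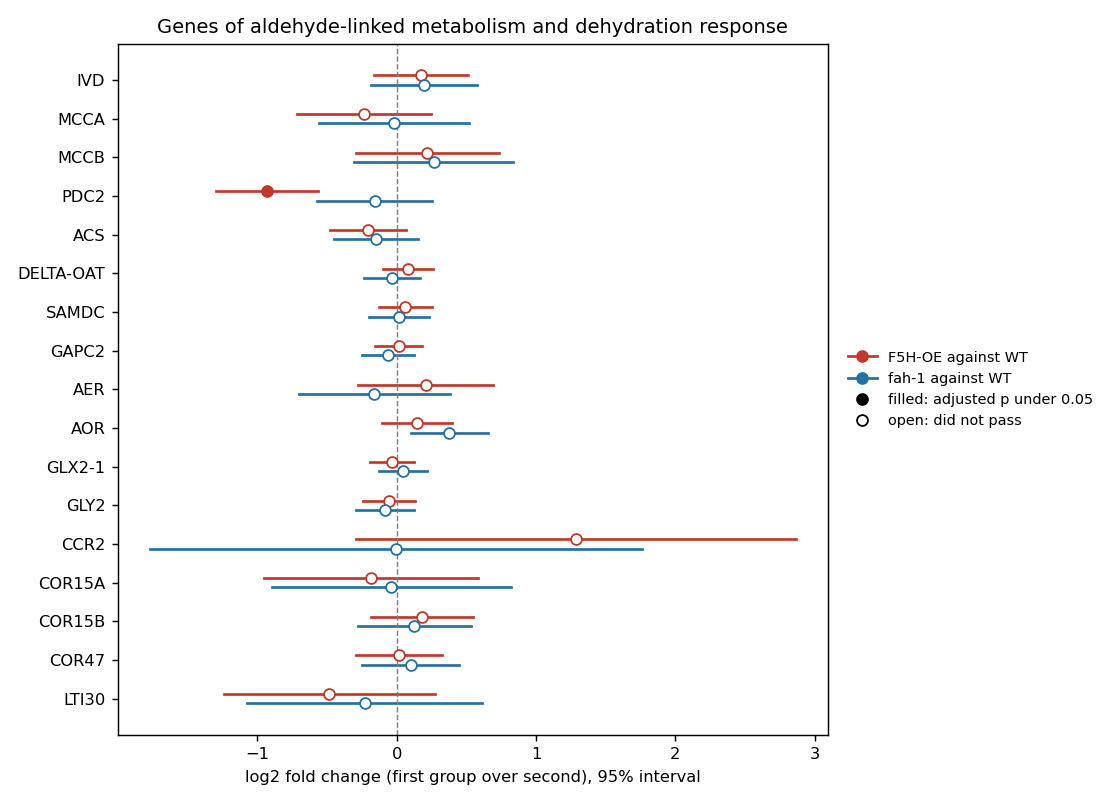
Log2 fold change (horizontal axis) with its 95% interval for the 17 measured genes of aldehyde-linked metabolism and of the dehydration response (rows) in F5H-OE against WT (red) and fah-1 against WT (blue); filled points passed an adjusted p of 0.05. The 1 filled point is PDC2 in F5H-OE against WT, at -0.93.

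Of the tissue markers, 6 of 39 genes were measured under a name, and none passed in F5H-OE against WT. RCA, the Rubisco activase and the 1 measured marker of 10 for photosynthetic tissue, lay between 10149 and 11119 in F5H-OE, against 10253 to 10536 in WT. The summed intensity of the 3 measured of 13 xylem and fibre markers (GUT2, also named IRX10, IRX15 and IRX15-L), all well above background, was 4520 to 5485 in F5H-OE, 3278 to 3427 in fah-1 and 4032 to 5379 in WT. In fah-1 against WT they were at -0.55 for GUT2, -0.46 for IRX15 and -0.34 for IRX15-L (unadjusted p = 0.0017, 0.016 and 0.062 by limma). None of the 3 passed there (adjusted p 0.898 to 0.965). Their fah-1 arrays were all below the WT arrays, as for 14.9% of all probe sets. GUT2, a xylan synthesis gene, had 1534, 1372 and 1660 in F5H-OE, 1016 and 930 in fah-1 and 1602, 1364 and 1307 in WT, and in F5H-OE against fah-1 it was higher at 0.64 (log2 fold change, adjusted p = 0.038), the 1 marker that passed there. That call ended without F5H-OE replicate 2 or 3, WT replicate 2 or 3 or either fah-1 array, with the replicate block (adjusted p = 0.079), with recentred arrays and in a fit of the 2 groups alone (adjusted p 0.0041 to 0.330 over the alternatives). SWEET11, the 1 measured of 5 phloem markers, had 576, 58.7 and 90.4 in F5H-OE, 528 and 619 in fah-1 and 312 to 916 in WT, and in F5H-OE against WT it was at -1.90 (log2, adjusted p = 0.256). WSD1, the 1 measured of 7 epidermis and cuticle markers, lay between 83.5 and 203 in F5H-OE, against 63.7 to 161 in WT, and no flower organ marker was measured. Without F5H-OE replicate 1 the value of SWEET11 was -2.89 and passed (adjusted p = 0.0049), as it did with array weights (-2.65, adjusted p = 0.013). SWEET11 was high in F5H-OE replicate 1 and low in replicates 2 and 3. The part of phloem, xylem or other cell types in the level of ALDH6B2 was not tested.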

How the data were processed

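Biotin-labelled cRNA of 8 stem samples was read on Affymetrix arrays, per the labels' protocols. The authors deposited 1 intensity per probe set and array, between 6.62 and 19683 on a linear scale, and RMA is the tool that the submitters' processing notes name. The RMA version, chip definition and filters are not stated there. RMA equalises the arrays, which would hide a shift shared by most transcripts.

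The log2 of each intensity was taken with no pseudocount. After removal of 64 controls from 22810 probe sets, limma 3.58.1 (R 4.3.3) estimated 3 group means from the 8 arrays by lmFit and eBayes. P-values are 2-sided and adjusted over 22746 probe sets, and SEs and 95% intervals are moderated. The platform annotation, updated through a TAIR10.1 gene table, gave 1 gene for 13513 probe sets, several for 503 and none for 8730.

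The members and lists were chosen with earlier results of these data known. Of 129 list genes 23 were measured. Named genes were all members, up to 3 genes per list by adjusted p in F5H-OE against WT and 2 in fah-1 against WT, and the 3 most similar genes of 3 members. The labels call the samples biological replicates and give their numbers. Other scalings, filters, spreads, array weights, a replicate block, a pseudocount of 16 and leaving out each array were tried as alternatives. The number of arrays limits the precision.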

Additional observations from a re-analysis of the deposited data

How the results depend on the processing

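Over 17 alternatives, ALDH6B2 kept its direction and its call in F5H-OE against WT, and 1 member of 7 was called in F5H-OE against WT and 0 in fah-1 against WT throughout. In F5H-OE against fah-1 the number of members called was 0 to 1 with an array left out, and ALDH6B2 ranged from -0.92 to -0.75 there. No member other than ALDH6B2 passed under any alternative run. Another probe set of the gene was not run, since each member has 1. Counts over all probe sets moved more. In F5H-OE against WT 603 became 379 in a fit of these groups alone, 2526 with array weights, 401 with the replicate block and 237 to 1758 with an array left out. In F5H-OE against fah-1 449 became 274, 2878, 229 and 69 to 1554 in the same order. In fah-1 against WT 2 became 1 with a robust spread, 1 on log2(intensity + 16) and 1 to 3 with an array left out. The number of arrays limits what small changes could be called, and the cause of each move was not tested.

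The results that changed sign had reported log2 fold changes between -0.23 (MCCA) and 0.22 (MCCB), and none of them passed the test. With array weights ALDH10A8 and AER in F5H-OE against WT were at 0.043 and -0.089, ALDH22A1 in F5H-OE against fah-1 at 0.052, and ALDH10A9, ALDH11A3, ALDH3F1 and ALDH7B4 in fah-1 against WT at -0.0091, -0.012, -0.063 and -0.0081. With quantile normalization ALDH10A8 in F5H-OE against WT was at 0.0092 and ALDH3F1 in F5H-OE against fah-1 at -0.0020. With recentred arrays ALDH3F1 in F5H-OE against fah-1 was at -0.032 and GAPC2 in F5H-OE against WT at -0.0081. With an array left out, the ranges in F5H-OE against WT were -0.040 to 0.047 for ALDH10A8, -0.14 to 0.24 for ALDH3F1, -0.41 to 0.020 for MCCA, -0.026 to 0.39 for MCCB, -0.0058 to 0.41 for AER, -0.095 to 0.015 for GLY2, -0.010 to 0.062 for GAPC2 and -0.0029 to 0.30 for COR15B. Those in fah-1 against WT were -0.044 to 0.052 for ALDH10A9, -0.026 to 0.044 for ALDH11A3, -0.045 to 0.17 for ALDH3F1 and -0.056 to 0.087 for ALDH7B4. Those in F5H-OE against fah-1 were -0.060 to 0.069 for ALDH22A1 and -0.16 to 0.22 for ALDH3F1. On log2(intensity + 16) the dim AT5G65850 and AT2G13890 were at -0.89 and 0.61 in F5H-OE against WT.

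Same-numbered arrays of different groups had deviations from their group means that correlated at -0.059 to 0.333 over 7 pairs, 2 of them over 0.1. Both were between F5H-OE and WT, at 0.17 for replicates 1 and 0.33 for replicates 2, with -0.02 for replicates 3. F5H-OE replicate 1 with WT replicate 2 was at -0.25, and F5H-OE replicate 2 with WT replicate 1 at -0.24. The deviations of the 2 fah-1 arrays mirror each other. These values do not settle whether the numbers pair samples, and the reported fit has no pairing. With the replicate block no call among the members changed, and ALDH3F1 in fah-1 against WT was at -0.0058.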
